A study of Homo sapiens with 10 samples.

Results

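The EGF receptor system of 12Z cells was described through 9 genes chosen by name from the 62750 gene IDs of the count table. They were the ligand genes HBEGF, AREG, EREG, TGFA and BTC, the receptor genes EGFR, ERBB2 and ERBB3, and ERRFI1, an inhibitor of the receptor kinase. All 9 were found in the table, and 5 of them (HBEGF, EGFR, ERBB2, ERBB3 and ERRFI1) passed the filter on low counts and were tested among 15740 genes.

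12Z is an established, immortalized line of human epithelial cells from peritoneal endometriosis, in which tissue resembling the lining of the uterus grows elsewhere. Poly(A) RNA was sequenced from 5 groups of 2 libraries (n = 2 each, 16312600 to 19479416 counts per library). The groups were IL1β with 1 µM CDD-2728, IL1β with 10 µM CDD-2728, IL1β with 1 µM CDD-3013, IL1β alone, and vehicle (DMSO). All cells were grown in medium with 10% serum and then starved overnight in medium without phenol red that held 2% charcoal-stripped serum. They received DMSO or a compound for 30 min, and then the inflammatory cytokine IL1β at 10 ng/ml for 6 h in every group but vehicle. The series calls both compounds inhibitors of the stress kinase JNK, and no group received a compound without IL1β. No label says that the libraries of a group came from separate cultures, so the p-values measure a spread that may be technical.

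Epithelial keratins were abundant, with a mean over the 10 libraries of 6772 CPM (counts relative to the scaled depth of each library) for KRT8, while the cadherin CDH1 was at 9.73 CPM and the adhesion molecule EPCAM near 0, at 0.0729 CPM. The collagen COL1A1 (2800.1 CPM) and the mesothelial marker LRRN4 (464 CPM) were also abundant, so the epithelial label rests on the keratins. Both are the highest of their marker lists. The other mesenchymal markers ranged from COL1A2 at 22.5 CPM to VIM at 535 CPM. The other mesothelial markers were MSLN at 68.9 CPM, WT1 at 62.7 CPM and UPK3B at 23.7 CPM. Of the immune markers PTPRC, CD14, CD68 and CD3E, 3 of 4 had a mean under 1 CPM, CD3E being at 0, and CD14 had a mean of 18.9 CPM. Of the endothelial markers PECAM1, CDH5, VWF and KDR, 2 of 4 had a mean under 1 CPM.

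EGF receptor ligands are made as precursors that span the cell membrane, and proteases of the ADAM family release the active growth factor. The ligand joins receptors of the ERBB family into pairs, whose kinase activity starts the RAS-ERK cascade and other pathways of growth, migration and survival. ERBB2 has no known ligand and serves as a partner, ERBB3 has a weak kinase and binds neuregulins, and ERRFI1 binds the active kinase of the receptor and slows it. In the endometrium, HBEGF is known for its part in embryo attachment.

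HBEGF, which encodes the heparin-binding EGF-like growth factor (ENSG00000113070.8, a protein-coding gene at chr5:140332843-140346631, minus strand, GRCh38), was the one ligand of the 5 with more than a trace of reads. It was 2.97-fold higher with IL1β than in vehicle, and in every compound arm it was lower than with IL1β alone, close to the vehicle level or below it. Its levels were 48.8 and 50.6 CPM with 1 µM CDD-2728, 27.2 and 28.0 CPM with 10 µM CDD-2728, 31.6 and 32.7 CPM with 1 µM CDD-3013, 150.5 and 155 CPM with IL1β alone, and 48.2 and 54.6 CPM in vehicle. Both IL1β libraries were above all others, and both libraries of 10 µM CDD-2728 were below all others.

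The HBEGF level averaged 153 ± 3.21 CPM with IL1β and 51.4 ± 4.5 CPM in vehicle (SD, n = 2 each), a log2 difference of 1.57 ± 0.08 (SE; edgeR quasi-likelihood test, adjusted p = 7.88e-14). Against IL1β alone, HBEGF fell by 1.62 ± 0.08 on the log2 scale with 1 µM CDD-2728 (3.07-fold lower, edgeR adjusted p = 6.69e-12). It fell by 2.47 ± 0.08 with 10 µM CDD-2728 (5.54-fold lower, edgeR adjusted p = 7.61e-16). With 1 µM CDD-3013 it fell by 2.25 ± 0.08 (4.75-fold lower, edgeR adjusted p = 7.19e-15). The HBEGF counts come from bulk RNA, in which fewer cells that express a gene and less RNA per cell cannot be told apart.

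The position of HBEGF relative to vehicle differed with dose and compound. With 1 µM CDD-2728 the log2 difference from vehicle was -0.05 ± 0.08, with a 95% interval of -0.21 to 0.12 (edgeR adjusted p = 0.681), so a difference was not detected at this size. With library totals in place of TMM scaling it was -0.24 and passed the test (edgeR adjusted p = 0.0213). With 10 µM CDD-2728 HBEGF fell below vehicle by 0.90 ± 0.08 (edgeR adjusted p = 8.74e-09), and with 1 µM CDD-3013 by 0.68 ± 0.08 (edgeR adjusted p = 6.27e-07). The compound arms thus differed among themselves: HBEGF was lower with 10 µM than with 1 µM CDD-2728 by a log2 difference of -0.85 ± 0.09 (edgeR adjusted p = 1.90e-07).

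**Figure D1:**
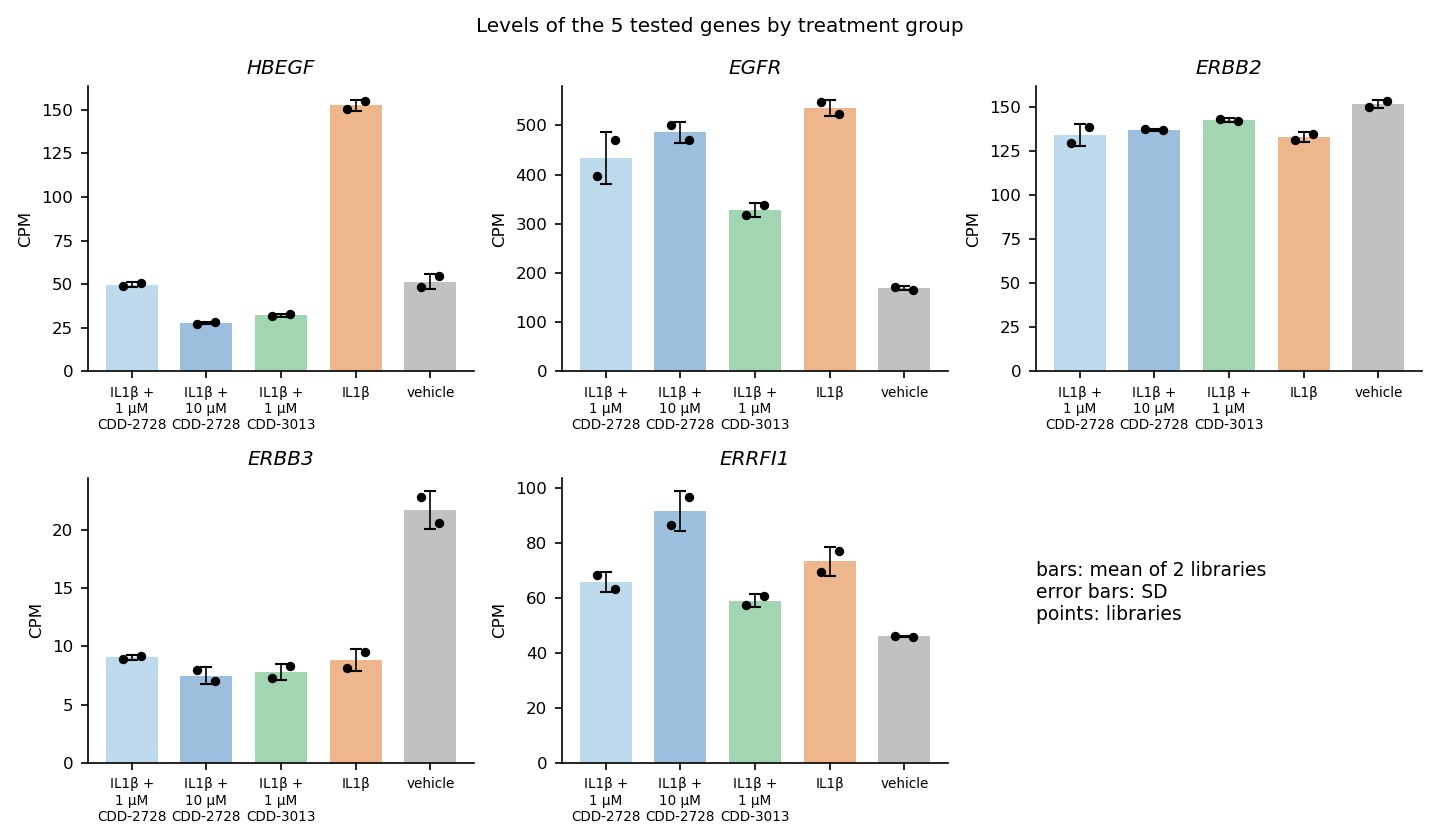
Levels of the 5 tested genes in CPM (vertical axis, linear from 0) by treatment group (horizontal axis), with bars at the mean of 2 libraries, error bars of 1 SD and points for the libraries. HBEGF stands at 153 CPM with IL1β alone, against 51.4 CPM in vehicle, and EGFR stays above its vehicle level of 169 CPM in every group that received IL1β.

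The other ligands were at or near the limit of detection in every group. AREG, which encodes amphiregulin (chr4:74445134-74455009, plus strand), had 1 and 2 counts with 1 µM CDD-2728, 2 and 0 with 10 µM CDD-2728, 6 and 3 with CDD-3013, 0 and 1 with IL1β alone, and 0 and 0 in vehicle. The counts of AREG in CDD-3013 libraries, 9 in sum, came to 0.276 CPM (95% exact Poisson interval 0.126 to 0.523), and the 0 counts in vehicle allow up to 0.0728 CPM when 3 counts are taken as the limit. These intervals and limits cover counting error only, and the filter on low counts left AREG out. Without the filter AREG was higher with CDD-3013 than in vehicle (edgeR adjusted p = 0.0494), while DESeq2 gave an unadjusted p of 0.0320 and no adjusted one. Against IL1β alone the AREG difference with CDD-3013 did not pass without the filter (edgeR adjusted p = 0.324).

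EREG, which encodes epiregulin (chr4:74365143-74388751, plus strand), had 1 count in all 10 libraries, in 10 µM CDD-2728. TGFA, the gene of transforming growth factor alpha (chr2:70447280-70554193, minus strand), had 25 counts over the 10 libraries and 0 to 4 in any one of them. BTC, which encodes betacellulin (chr4:74744759-74794686, minus strand), had 24 counts over the 10 libraries and 0 to 7 in any one. The groups of TGFA and BTC overlapped widely, except that both libraries with 10 µM CDD-2728 and both with IL1β alone had 4 counts of TGFA. Measured per length (RPKM, CPM per kilobase of exon), HBEGF made up 97.6% to 99.8% of the summed level of the 5 ligand genes in any library.

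**Figure D2:**
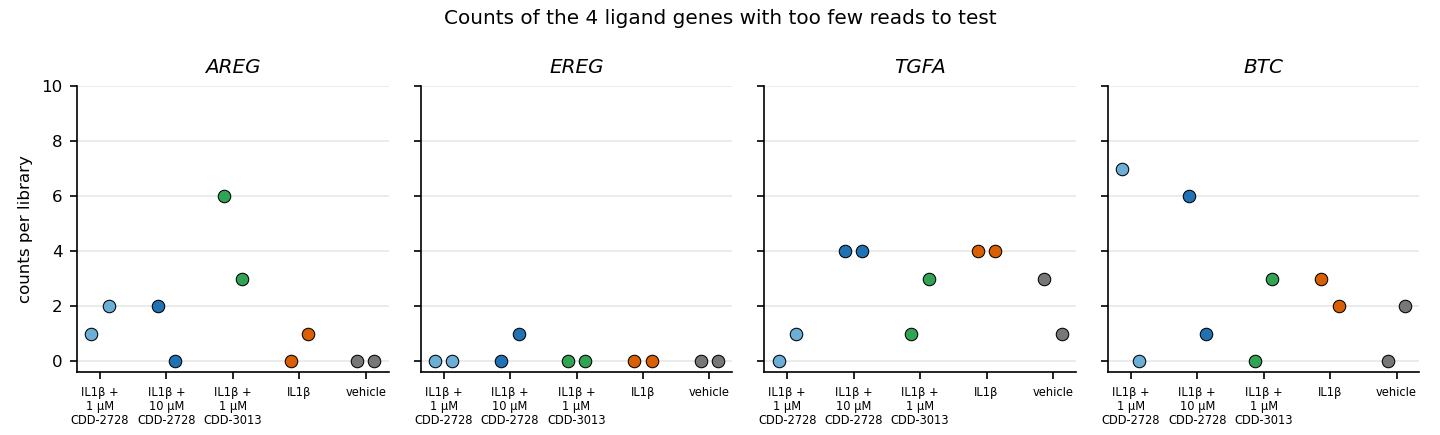
Counts per library (vertical axis) of AREG, EREG, TGFA and BTC by treatment group (horizontal axis), with 1 point per library. No library has more than 7 counts of any of the 4 genes, and the 6 and 3 counts of AREG are in CDD-3013 libraries.

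EGFR, which encodes the receptor itself (ENSG00000146648.21, chr7:55019021-55211628, plus strand), rose with IL1β as its ligand HBEGF did, but stayed above the vehicle level in every compound arm. Its levels were 397 and 471 CPM with 1 µM CDD-2728, 500.4 and 471 CPM with 10 µM CDD-2728, 318 and 338 CPM with 1 µM CDD-3013, 548 and 524 CPM with IL1β alone, and 171 and 166 CPM in vehicle. Every library that received IL1β was above both vehicle libraries, and the CDD-3013 libraries were the lowest of those that received it.

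The EGFR level averaged 536 ± 16.6 CPM with IL1β and 169 ± 3.80 CPM in vehicle (SD, n = 2 each), which is 3.18-fold higher (log2 difference 1.67 ± 0.08, edgeR adjusted p = 2.41e-14). Against IL1β alone EGFR fell by 0.71 ± 0.08 with CDD-3013 (edgeR adjusted p = 5.59e-07). This was the largest EGFR change of the compound arms, and with offsets for gene length and GC content it was smaller, at -0.41 (edgeR adjusted p = 2.10e-06).

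The summed level of the epithelial markers KRT8, KRT18, KRT19, EPCAM and CDH1 moved with the CDD-3013 arm. This sum, mostly KRT8, was 12252 and 13453 CPM with CDD-3013, against 8997 and 9111 CPM with IL1β alone. Its part in the EGFR and HBEGF results was not tested. Sums of other marker lists also differed between groups. The endothelial sum, mostly KDR, was 53.3 and 46.7 CPM with 10 µM CDD-2728, 16.2 and 17.5 CPM with IL1β alone, and 36.0 and 38.0 CPM in vehicle. The mesenchymal sum (VIM, COL1A1, COL1A2, PDGFRB and THY1), mostly COL1A1, was 2909 and 3023 CPM with 10 µM CDD-2728, against 4109 and 4131 CPM with IL1β alone. Of its 5 genes, 1 was called higher and 2 lower in that comparison. The mesothelial sum (LRRN4, MSLN, UPK3B and WT1), mostly LRRN4, was 464 and 505 CPM with 10 µM CDD-2728, against 635 and 642 CPM with IL1β alone. Of its 4 genes, 2 were called higher and 2 lower there, so the mesothelial markers did not move together. With CDD-3013 the mesenchymal sum was 3563 and 3265 CPM and the mesothelial sum 751 and 735 CPM. The part of these sums in the results for the compound arms and for IL1β was not tested.

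With 1 µM CDD-2728 EGFR fell by 0.31 ± 0.07 against IL1β alone (edgeR adjusted p = 0.0181), a call that rests on single libraries. The adjusted p for EGFR was 0.353 without the first library of 1 µM CDD-2728, and 0.258 and 0.0845 without the first and the second IL1β library. The EGFR difference from IL1β with 10 µM CDD-2728 was -0.14 ± 0.07 (95% interval -0.30 to 0.01, edgeR adjusted p = 0.157), and did not pass the test in the fit of all libraries. In a fit of only the 4 libraries compared it passed (-0.14, edgeR adjusted p = 0.0487). Against vehicle EGFR was higher in each arm, by 1.36 ± 0.08 with 1 µM CDD-2728, 1.53 ± 0.08 with 10 µM CDD-2728 and 0.96 ± 0.08 with CDD-3013 on the log2 scale.

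ERBB3, the neuregulin receptor (ENSG00000065361.17, chr12:56076799-56103505, plus strand), fell under IL1β, in the opposite direction to EGFR, and stayed low with both compounds. Its levels were 8.91 and 9.20 CPM with 1 µM CDD-2728, 8.01 and 6.99 CPM with 10 µM CDD-2728, 7.31 and 8.29 CPM with CDD-3013, 8.17 and 9.48 CPM with IL1β alone, and 22.9 and 20.6 CPM in vehicle. Both vehicle libraries were above all others, and the groups that received IL1β overlapped or lay close together.

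The ERBB3 level averaged 8.83 ± 0.929 CPM with IL1β and 21.7 ± 1.62 CPM in vehicle (SD, n = 2 each), 2.47-fold lower with IL1β (log2 difference -1.30 ± 0.14, edgeR adjusted p = 4.27e-08). Against IL1β alone the ERBB3 differences were 0.04 ± 0.15 with 1 µM CDD-2728 (95% interval -0.27 to 0.35), -0.23 ± 0.15 with 10 µM CDD-2728 (-0.54 to 0.09) and -0.18 ± 0.15 with CDD-3013 (-0.49 to 0.14). None of these 3 passed the edgeR test, with adjusted p = 0.921, 0.271 and 0.401 in that order. Against vehicle ERBB3 was lower in each arm, at -1.27 ± 0.13, -1.53 ± 0.14 and -1.48 ± 0.14 on the log2 scale in the same order.

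ERBB2, the partner receptor without a known ligand (ENSG00000141736.14, chr17:39687914-39730426, plus strand), varied least of the 5 tested genes, over 0.19 on the log2 scale between its lowest and highest group mean. Its levels were 129.7 and 139 CPM with 1 µM CDD-2728, 138 and 137 CPM with 10 µM CDD-2728, 143 and 142 CPM with CDD-3013, 131 and 135 CPM with IL1β alone, and 150.2 and 154 CPM in vehicle. Both vehicle libraries were the highest. ERBB2 fell by 0.19 ± 0.06 with IL1β against vehicle (edgeR adjusted p = 0.0264), a small difference that did not pass in DESeq2 (adjusted p = 0.0567) or without any 1 of the 4 libraries (edgeR adjusted p from 0.0875 to 0.211).

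No compound arm differed from IL1β alone in ERBB2 by the edgeR test, with log2 differences of 0.01 to 0.10 and 95% intervals that reached from -0.12 to 0.23. ERBB2 shares exon bases with genes on the opposite strand, 571 with MIEN1 and 194 with PGAP3, and the strand setting of the counting is not given in the sources used here. Reads of these genes in the shared bases can therefore not be told apart.

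ERRFI1, the cytosolic inhibitor of the receptor kinase, also known as MIG6 (ENSG00000116285.13, chr1:8004404-8026308, minus strand), is itself known as a gene that receptor signalling induces. It rose under IL1β, and the doses of CDD-2728 then differed. Its levels were 68.2 and 63.0 CPM with 1 µM CDD-2728, 86.3 and 96.6 CPM with 10 µM CDD-2728, 57.3 and 60.6 CPM with CDD-3013, 69.4 and 76.9 CPM with IL1β alone, and 46.1 and 45.7 CPM in vehicle. The vehicle libraries were the lowest, the 10 µM CDD-2728 libraries were the highest, and no groups overlapped.

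The ERRFI1 level averaged 73.2 ± 5.30 CPM with IL1β and 45.9 ± 0.287 CPM in vehicle (SD, n = 2 each), a log2 difference of 0.67 ± 0.08 (edgeR adjusted p = 8.11e-07). ERRFI1 was higher with 10 µM than with 1 µM CDD-2728 by 0.48 ± 0.08 (edgeR adjusted p = 0.000137). Against IL1β alone it was higher by 0.32 ± 0.08 with 10 µM CDD-2728 (edgeR adjusted p = 0.00372), lower with CDD-3013 (-0.31 ± 0.08, edgeR adjusted p = 0.00494), and -0.16 ± 0.08 with 1 µM CDD-2728 (edgeR adjusted p = 0.322). The ERRFI1 call for 10 µM CDD-2728 was lost without the first IL1β library (adjusted p = 0.0988) or the second library of that arm (0.0869). The call for CDD-3013 was lost without the second IL1β library (0.108) or the first CDD-3013 library (0.0651). ERRFI1 shares 155 exon bases with an antisense gene, AL034417.4, that had 381 counts over the 10 libraries, against 11742 for ERRFI1.

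**Figure D3:**
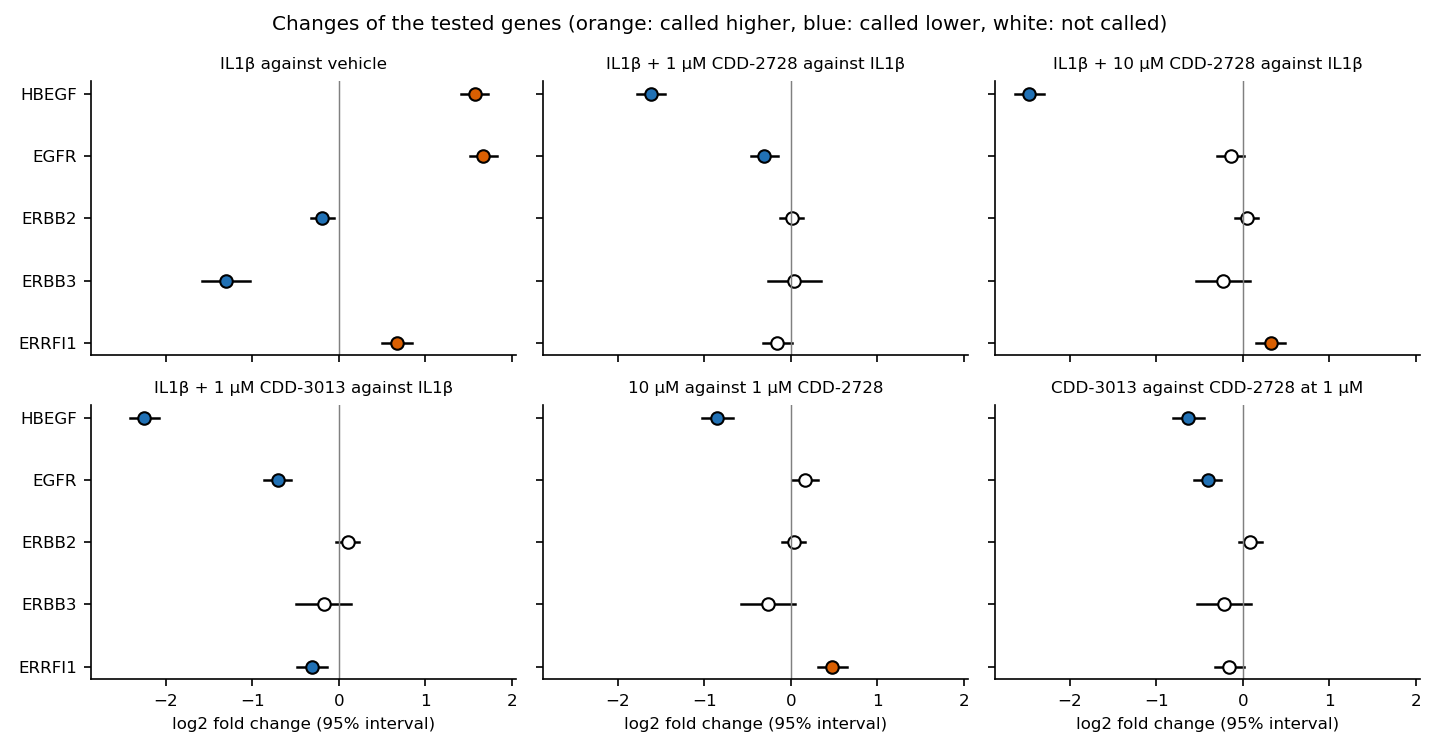
Log2 fold changes (horizontal axis) of the 5 tested genes in 6 comparisons, with points at the fitted value and bars for the 95% interval. HBEGF is lower in all 5 comparisons that involve a compound, EGFR and ERBB3 move apart under IL1β (1.67 and -1.30), and ERRFI1 is higher with 10 µM than with 1 µM CDD-2728.

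Counted together, 3 of the 5 tested genes were higher and 2 lower with IL1β than in vehicle, where 32.6% of all tested genes passed the edgeR test (17.6% higher and 15.0% lower). Of all calls in that comparison 54% were higher with TMM scaling and 25.5% with library totals, which shift the median of all genes to -0.18 on the log2 scale, and the directions of the 5 genes held under both. With 1 µM CDD-2728, 2 of 5 (HBEGF and EGFR) were lower than with IL1β alone, where 4.59% of all tested genes passed (2.03% higher and 2.57% lower). HBEGF was lower and ERRFI1 higher with 10 µM CDD-2728 than with IL1β alone, 2 of 5 where 31.5% of all tested genes passed (15.6% higher and 15.9% lower). HBEGF, EGFR and ERRFI1 were lower with CDD-3013 than with IL1β alone, 3 of 5 where 36.4% of all tested genes passed (19.0% higher and 17.3% lower). At 10 µM CDD-2728 the share of the 5 genes that passed was near that of all genes.

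The matched dose of 1 µM gave 1 pair of compounds to compare, CDD-3013 and CDD-2728. HBEGF was 31.6 and 32.7 CPM with CDD-3013, against 48.8 and 50.6 CPM with CDD-2728, a log2 difference of -0.63 ± 0.08 (edgeR adjusted p = 0.000406). EGFR was lower with CDD-3013, at -0.40 ± 0.08 (edgeR adjusted p = 0.00161), or -0.20 with offsets for gene length and GC content (edgeR adjusted p = 0.0392). HBEGF and EGFR were 2 of 5 tested genes, in a comparison where 17.9% of all tested genes passed (9.85% higher and 8.01% lower). The summed level of the epithelial markers was 12252 and 13453 CPM with CDD-3013, against 10643 and 8891 CPM with 1 µM CDD-2728, and its part in these differences was not tested.

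For the other genes the difference between the compounds at 1 µM, CDD-3013 minus CDD-2728, did not pass the edgeR test. It was 0.09 for ERBB2 (95% interval -0.05 to 0.22), -0.22 for ERBB3 (-0.53 to 0.10) and -0.15 for ERRFI1 (-0.33 to 0.02) on the log2 scale. Between 10 µM and 1 µM CDD-2728, HBEGF was lower and ERRFI1 higher, 2 of 5 tested genes where 27.1% of all tested genes passed (13.3% higher and 13.8% lower). The EGFR difference between these doses was 0.16 ± 0.07 (95% interval 0.01 to 0.32, edgeR adjusted p = 0.110). It passed with library totals (0.24, edgeR adjusted p = 0.0271) and without the second library of 1 µM CDD-2728 (0.28).

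Set against vehicle, 4 of 5 tested genes differed in each arm, 2 higher and 2 lower. Of all tested genes 34.8% passed with 1 µM CDD-2728 (18.3% higher and 16.6% lower), 34.7% with 10 µM CDD-2728 (18.2% higher and 16.4% lower) and 49.4% with CDD-3013 (26.0% higher and 23.4% lower). The higher genes were EGFR and ERRFI1 in every arm. ERRFI1 was higher than in vehicle by 0.52 ± 0.08 with 1 µM CDD-2728, 0.99 ± 0.08 with 10 µM CDD-2728 and 0.36 ± 0.08 with CDD-3013, and the last of these did not pass with library totals (0.10, edgeR adjusted p = 0.291). Library totals shift the median of all genes against vehicle to -0.21 with 1 µM CDD-2728, -0.13 with 10 µM CDD-2728 and -0.29 with CDD-3013. The lower genes were ERBB3 in every arm, HBEGF with 10 µM CDD-2728 and with CDD-3013, and ERBB2 with 1 µM CDD-2728 (-0.18 ± 0.06, edgeR adjusted p = 0.0341), a call lost under 11 of the 18 alternatives.

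Measured per length, the order of the 5 genes changed between groups. The length was that of all annotated exons of a gene merged, such as 3018 bases for HBEGF, 12521 for EGFR and 10321 for ERBB2. The transcripts present may be shorter, so the order of the genes within a group depends on this choice. With IL1β alone the RPKM levels were 50.6 for HBEGF, 42.8 for EGFR, 17.5 for ERRFI1, 12.9 for ERBB2 and 0.976 for ERBB3. In vehicle they were 17.0 for HBEGF, 14.7 for ERBB2, 13.5 for EGFR, 11.0 for ERRFI1 and 2.41 for ERBB3, so the first 4 lay close together on this measure. In the 10 µM CDD-2728 group HBEGF, at 9.14 RPKM, was below EGFR (38.8), ERRFI1 (21.8) and ERBB2 (13.3).

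Promoter windows of HBEGF, EGFR and AREG are shown because HBEGF and EGFR both rose with IL1β while AREG stayed near 0. Over the 10 libraries the log2 CPM of HBEGF and EGFR had a Pearson r of only 0.229. A further reason is that c-Jun, the classical substrate of JNK, is a component of the transcription factor AP-1. The windows come from RefSeq on GRCh38.p14, which held 10 windows for 8 of the 9 genes, ERBB3 having none. Each sequence is the 250 bases before an annotated start, read 5′ to 3′ on the strand of the gene, at chr5:140346604-140346853 (minus) for HBEGF, chr7:55109589-55109838 (plus) for the second EGFR start, and chr4:74444886-74445135 (plus) for AREG. Capitals mark matches to the AP-1 motif TGANTCA, the cAMP response element TGACGTCA or the TATA box TATAAA, searched on both strands.
HBEGF: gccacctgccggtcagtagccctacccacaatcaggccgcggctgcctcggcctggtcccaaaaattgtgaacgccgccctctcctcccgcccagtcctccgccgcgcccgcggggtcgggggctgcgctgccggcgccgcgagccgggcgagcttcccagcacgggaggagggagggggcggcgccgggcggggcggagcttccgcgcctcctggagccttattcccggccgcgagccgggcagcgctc
EGFR, second start: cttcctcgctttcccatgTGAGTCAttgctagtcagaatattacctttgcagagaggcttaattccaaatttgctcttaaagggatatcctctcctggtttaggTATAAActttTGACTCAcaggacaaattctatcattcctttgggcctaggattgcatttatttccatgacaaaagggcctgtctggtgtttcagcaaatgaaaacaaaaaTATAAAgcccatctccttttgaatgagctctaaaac
AREG: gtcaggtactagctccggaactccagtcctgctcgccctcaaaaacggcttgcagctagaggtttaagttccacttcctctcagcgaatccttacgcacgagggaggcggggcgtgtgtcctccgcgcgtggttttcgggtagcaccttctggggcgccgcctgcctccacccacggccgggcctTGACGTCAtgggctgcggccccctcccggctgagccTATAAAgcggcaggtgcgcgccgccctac

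The HBEGF window, which with 50 bases after the start is 75% G and C against a median of 58.7% over all windows, held none of these motifs. The window of the first EGFR start, at the beginning of the gene, is not printed and held none either. The second EGFR start lies inside the gene and its window was 42% G and C, with 2 AP-1 motifs that begin 232 and 136 bases before the start and 2 TATA boxes at 146 and 36 bases. The counts do not show which start was used. AREG had the cAMP response element 65 bases and a TATA box 29 bases before its start.

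Of the other windows, that of ERBB2 held an AP-1 motif 222 bases before the start, that of EREG a TATA box at 32 bases, and the first of TGFA a match to the NF-κB motif at 219 bases. The windows of BTC, ERRFI1 and the second TGFA start held none of the 4 motifs. Over 35116 windows of the same length, 7.71% held the AP-1 motif, 1.85% the cAMP response element, 11.5% the TATA box and 5.91% the NF-κB motif. These matches describe letters in the windows and not sites in use.

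AREG, EREG and BTC lie on chromosome 4 beside a cluster of chemokine genes, together with EPGN, the gene of the ligand epigen, and some of these neighbours were abundant with IL1β. CXCL8, which encodes the neutrophil attractant interleukin 8, averaged 960 CPM with IL1β and 1.93 CPM in vehicle. CXCL6 averaged 900.04 CPM with IL1β and 16.3 CPM in vehicle, CXCL1 719.6 and 1.38 CPM, and CXCL2 116 and 1.10 CPM. Some other chemokine genes there were low, with PF4 and PPBP at 0 in every group, PF4V1 at a group mean of at most 0.0560 CPM, and CXCL5 at 1.21 CPM with IL1β. Within the same stretch the EGF family ligands stayed below 1 CPM in every group mean. EPGN had 59 counts over the 10 libraries, with 9 and 9 with 1 µM CDD-2728, 6 and 6 with 10 µM CDD-2728, 5 and 15 with CDD-3013, 7 and 1 with IL1β alone and 0 and 1 in vehicle.

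The gene next to BTC on the other side, PARM1, which encodes a mucin-like membrane protein, averaged 109 CPM with IL1β and 172 CPM in vehicle (log2 difference -0.66 ± 0.07, edgeR adjusted p = 3.05e-08). PARM1 was higher with each compound than with IL1β alone, by 0.44 ± 0.07 with 1 µM CDD-2728, 1.00 ± 0.07 with 10 µM CDD-2728 and 0.41 ± 0.07 with CDD-3013. MTHFD2L, an enzyme of mitochondrial folate metabolism that lies between CXCL2 and EPGN, was at 4.90 CPM with IL1β and 4.19 CPM in vehicle and was not called in any of these comparisons. The chemokine genes also differed among themselves with 10 µM CDD-2728, where CXCL8 fell by 1.33 ± 0.12 and CXCL6 by 1.01 ± 0.07 against IL1β alone, while CXCL2 was higher by 1.06 ± 0.08.

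**Figure D4:**
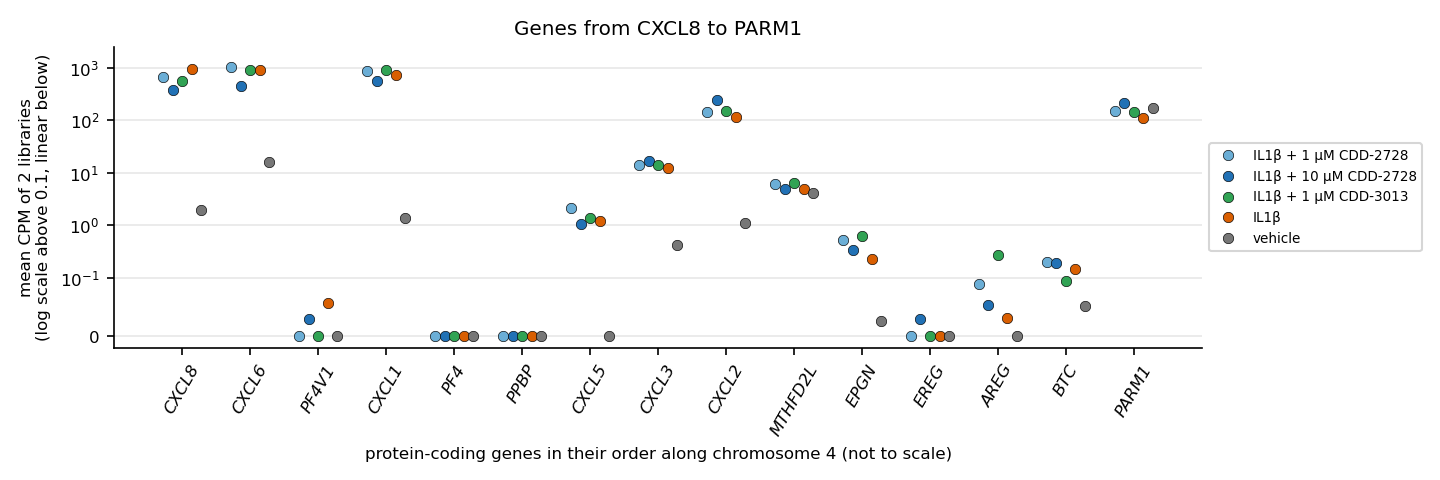
Mean CPM of 2 libraries (vertical axis, logarithmic above 0.1 and linear below) of the protein-coding genes from CXCL8 to PARM1 in their order along chromosome 4 (horizontal axis, not to scale), with 1 point per treatment group. EPGN, EREG, AREG and BTC lie below 1 CPM in all 5 groups, between CXCL2, at 116 CPM with IL1β alone, and PARM1, at 109 CPM.

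The other ERBB family ligands and the receptor ERBB4 added little RNA. Of 7 genes (EGF, EPGN, NRG1, NRG2, NRG3, NRG4 and ERBB4) 3 were tested. With IL1β 1 was higher and 1 lower than in vehicle, where 32.6% of all tested genes passed. NRG1, which encodes a neuregulin that binds ERBB3 and ERBB4, was at 9.79 and 10.9 CPM with IL1β and at 5.45 and 7.05 CPM in vehicle, a log2 difference of 0.73 ± 0.17 (edgeR adjusted p = 0.00179). NRG2, another neuregulin, was at 0.392 and 0.314 CPM with IL1β and at 1.43 and 1.12 CPM in vehicle, a log2 difference of -1.83 ± 0.55 (edgeR adjusted p = 0.00806) from 7 and 5 counts with IL1β and 31 and 22 counts in vehicle. NRG2 lost its call without either IL1β library or without the first vehicle library. ERBB4 had 46 counts over the 10 libraries and was not tested, and no gene of this list passed the edgeR or the DESeq2 test in a compound arm against IL1β alone. With 10 µM CDD-2728 1 was higher with library totals and 1 with offsets for gene length and GC content. At an unadjusted p under 0.05 there were 0 with 1 µM CDD-2728, 2 with 10 µM CDD-2728 and 0 with CDD-3013.

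Most genes of ligand release were higher with IL1β, as HBEGF was. Of 9 tested genes, 7 were higher and 0 lower than in vehicle (median log2 difference 0.37, against -0.01 over all tested genes). Of all tested genes 17.6% were higher and 15.0% lower. With library totals 5 of the 9 were higher and 0 lower. ADAM17, the main protease that releases HBEGF and AREG, was at 80.8 and 84.7 CPM with IL1β and at 55.8 and 52.1 CPM in vehicle (log2 difference 0.61 ± 0.08, edgeR adjusted p = 7.19e-07). RHBDF2, which encodes the iRhom that carries ADAM17 to the surface, was at 73.9 and 69.2 CPM with IL1β and at 36.6 and 34.5 CPM in vehicle (1.01 ± 0.08). TIMP3, an inhibitor of ADAM17, rose as well, by 0.55 ± 0.08, so the list holds genes of opposite action.

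In the compound arms 1 to 5 of the 9 release genes were called against IL1β alone, where 4.59% to 36.4% of all tested genes passed. With 1 µM CDD-2728 the one gene called was TIMP3, which fell by 0.63 ± 0.08 against IL1β alone. With 10 µM CDD-2728, 1 was higher and 4 lower: RHBDF2 was higher by 0.30 ± 0.08, and TIMP3 (-0.90 ± 0.08), RHBDF1 (-0.65 ± 0.09), ADAM12 (-0.61 ± 0.07) and ADAM17 (-0.42 ± 0.08) were lower. The RHBDF2 call was lost without the second IL1β library. With CDD-3013, 0 were higher and 5 lower than with IL1β alone, among them TIMP3 (-0.82 ± 0.08), ADAM12 (-0.56 ± 0.07, or -0.31 with offsets for gene length and GC content) and ADAM17 (-0.27 ± 0.08). The ADAM17 call with CDD-3013 changed sign with these offsets (0.05, edgeR adjusted p = 0.617), and so did that of ADAM10 (-0.25 ± 0.07 in the fit of all libraries, 0.22 with the offsets). With the offsets 1 of the 9 release genes was called higher and 5 lower with CDD-3013 than with IL1β alone.

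CD44 and CD9, membrane proteins known to bind the HBEGF precursor, were both higher with IL1β. In that comparison 17.6% of all tested genes were higher and 15.0% lower. CD44 was at 1066 and 1025 CPM with IL1β and at 434 and 447 CPM in vehicle (log2 difference 1.25 ± 0.07, edgeR adjusted p = 4.30e-13). It was lower than with IL1β alone in every arm, at -0.33 ± 0.07 with 1 µM CDD-2728, -0.85 ± 0.07 with 10 µM CDD-2728 and -0.50 ± 0.07 with CDD-3013 (-0.33 with the offsets), and the call for 1 µM CDD-2728 was lost without the first IL1β library. CD9 rose by 0.52 ± 0.07 with IL1β. It was called lower than with IL1β alone with 10 µM CDD-2728 (-0.24 to -0.14 over the 18 alternatives), but not with library totals. With 1 µM CDD-2728 and CDD-3013 CD9 was not called, though with the offsets both genes were lower with CDD-3013. Of all tested genes 4.59% passed with 1 µM CDD-2728, 31.5% with 10 µM CDD-2728 and 36.4% with CDD-3013.

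Of 9 brakes of EGFR and ERBB3, 8 were tested, and with IL1β 4 were higher and 0 lower than in vehicle (median 0.30, against -0.01 over all tested genes). In that comparison 32.6% of all tested genes passed (17.6% higher and 15.0% lower). There 2 brakes were higher with library totals, and 5 with offsets for gene length and GC content. LRIG1, a membrane protein that promotes the breakdown of ERBB receptors, was at 30.2 and 26.4 CPM with IL1β and at 4.43 and 3.63 CPM in vehicle (log2 difference 2.80 ± 0.18, edgeR adjusted p = 5.83e-12). LRIG1 was at 10.6 and 13.9 CPM with 10 µM CDD-2728, a log2 difference from IL1β alone of -1.21 ± 0.15 (edgeR adjusted p = 1.34e-06). In that arm 2 of 8 brakes were higher and 3 lower than with IL1β alone. Of all tested genes 31.5% passed there (15.6% higher and 15.9% lower). The higher brakes were RNF41 and SOCS5, and the call of SOCS5 was lost in DESeq2. With CDD-3013 4 of 8 brakes were lower and 0 higher than with IL1β alone, where 36.4% of all tested genes passed (19.0% higher and 17.3% lower). Among the lower ones were CBL, the ubiquitin ligase of EGFR (-0.64 ± 0.09), and SOCS4 (-0.74 ± 0.11). With offsets for gene length and GC content 3 were lower. The values for CBL and SOCS4 were then -0.28 and -0.35, still past the threshold. With 1 µM CDD-2728 0 of 8 were called by edgeR or DESeq2, and 2 had an unadjusted p under 0.05. Of all tested genes 4.59% passed the edgeR test there.

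The genes of the ERK output list, which ERK signalling is known to induce, rose with IL1β, and most of them were higher with 10 µM than with 1 µM CDD-2728. With IL1β 9 of 10 were higher than in vehicle and 0 lower (median 0.56, against -0.01 over all tested genes). Of all tested genes 32.6% passed in that comparison (17.6% higher and 15.0% lower). With DESeq2 or with library totals 8 of the 10 were higher. DUSP6, the cytoplasmic phosphatase of ERK, was at 18.3 and 22.8 CPM with 10 µM CDD-2728, at 6.10 and 6.47 CPM with IL1β alone and at 3.32 and 2.81 CPM in vehicle. SPRY4, an inhibitor of receptor signalling, was at 37.7 and 40.2 CPM with 10 µM CDD-2728, at 12.7 and 8.85 CPM with IL1β alone and at 3.97 and 3.32 CPM in vehicle. In both genes the libraries of 10 µM CDD-2728 were the highest and those of vehicle the lowest.

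Against IL1β alone, 10 µM CDD-2728 gave 5 higher and 1 lower of 10, where 31.5% of all tested genes passed. There were 0 higher and 3 lower with 1 µM CDD-2728, where 4.59% of all tested genes passed. The higher genes at 10 µM were SPRY4 (1.84 ± 0.14), DUSP6 (1.71 ± 0.15), the transcription factor ETV5 (1.22 ± 0.12), SPRY2 (0.84 ± 0.12) and PHLDA1 (0.73 ± 0.11). Set directly against 1 µM, 10 µM CDD-2728 gave 7 higher and 1 lower of 10 (median 0.77, against 0.01 over all tested genes). Of all tested genes 27.1% passed between the doses (13.3% higher and 13.8% lower). ETV5 was higher with 10 µM by 1.32 ± 0.12 (edgeR adjusted p = 3.21e-08). ERRFI1, which is not on that list, differed between the doses in the same direction. With CDD-3013 1 was higher and 2 lower of 10, a smaller share than the 36.4% of all tested genes that passed. The higher one was DUSP6 (0.67 ± 0.16, edgeR adjusted p = 0.00220). The phosphatase DUSP4 was lower than with IL1β alone with 1 µM CDD-2728 (-0.60 ± 0.09) and with CDD-3013 (-0.63 ± 0.09). At 10 µM CDD-2728 DUSP4 differed from IL1β alone by 0.07 ± 0.09 (edgeR adjusted p = 0.617). At 1 µM none of the 10 passed in edgeR or DESeq2 between CDD-3013 and CDD-2728, where 17.9% of all tested genes passed in edgeR. Of the 10, 1 had an unadjusted p under 0.05, and 1 was lower with library totals.

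**Figure D5:**
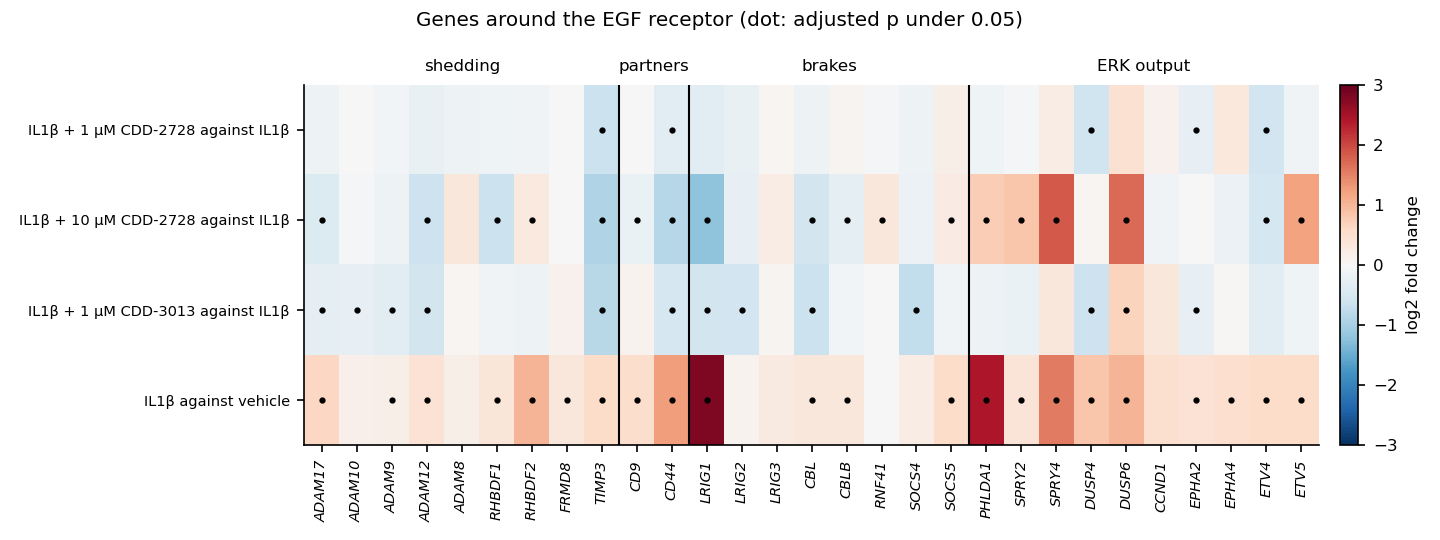
Log2 fold changes (colour, blue for lower and red for higher) of tested genes of ligand release, HBEGF precursor partners, receptor brakes and ERK output (columns) in 4 comparisons (rows), with a dot where the adjusted p is under 0.05. The row for IL1β against vehicle is mostly red, and the row for 10 µM CDD-2728 is red for SPRY4 (1.84), DUSP6 (1.71) and ETV5 (1.22) and blue for LRIG1 (-1.21).

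Of 18 genes for adaptors and the RAS-ERK cascade, 7 were higher with IL1β and 1 lower than in vehicle. In that comparison 32.6% of all tested genes passed (17.6% higher and 15.0% lower). There 5 of the 18 were higher and 3 lower with library totals, and 11 higher and 1 lower with offsets for gene length and GC content. The adaptor GAB2 was higher by 0.64 ± 0.09 and the phosphatase PTPN11 by 0.37 ± 0.07. With 1 µM CDD-2728 none was called by edgeR or DESeq2, where 4.59% of all tested genes passed in edgeR. Of the 18, 2 had an unadjusted p under 0.05, and 1 was lower with offsets for gene length and GC content. With 10 µM CDD-2728 1 was higher and 5 lower than with IL1β alone, 6 of 18 where 31.5% of all tested genes passed. With CDD-3013 5 were higher and 7 lower, 12 of 18 where 36.4% passed. The offsets gave 1 higher and 9 lower with 10 µM CDD-2728, and 4 higher and 2 lower with CDD-3013. PTPN11 was lower than with IL1β alone, at -0.60 ± 0.07 with 10 µM CDD-2728 and -0.59 ± 0.07 with CDD-3013. With CDD-3013 the kinase MAP2K2 was higher by 0.42 ± 0.07 than with IL1β alone, in the opposite direction to PTPN11. With the offsets these differences were 0.22 for MAP2K2 and -0.37 for PTPN11.

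Correlations of log2 CPM over the 10 libraries were ranked among 9406 protein-coding genes with a mean of at least 5 CPM that passed a filter on names. That filter also removed coding genes whose symbol ends in P and a number, such as DUSP6, so closer genes may have been missed. Of the genes ranked, RTN4 (Pearson r = 0.987), which encodes a membrane protein of the endoplasmic reticulum, followed HBEGF most closely. Next were the transcription factor MYBL1 (0.977) and OCLN (0.976), a protein of tight junctions. MYBL1 averaged 60.6 CPM with 1 µM CDD-2728, 43.1 CPM with 10 µM CDD-2728, 43.5 CPM with CDD-3013, 105 CPM with IL1β alone and 66.4 CPM in vehicle. A correlation does not measure the size of a change, and these genes moved less than HBEGF. The group means of RTN4 ran only from 439 to 590 CPM and those of OCLN from 31.9 to 51.7 CPM. Of the genes ranked, those closest to EGFR were the calcium pump ATP2B1 (0.995), OSMR (0.986), the receptor of oncostatin M, and SLC7A1 (0.986), a transporter of cationic amino acids. Those closest to ERBB3 were CD24 (0.991), which encodes a surface glycoprotein, HACD3 (0.982) and PTGFR (0.980), the prostaglandin F receptor. These values describe 10 libraries that share 5 treatments and 1 line of cells. CD24 averaged 40.7 CPM with IL1β alone and 96.6 CPM in vehicle, and ATP2B1 228 CPM with IL1β alone and 132 CPM in vehicle. HACD3 moved little, at 160 CPM with IL1β alone and 182 CPM in vehicle.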

How the data were processed

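The authors deposited raw gene counts for all 10 libraries in 1 table. The submitters' processing notes name the tools fastp, STAR and featureCounts with build hg38, without versions, and the strand setting is not given in the sources used here. Genes were kept with filterByExpr (minimum count 10), scaled with TMM factors of 0.917 to 1.11 and fitted in edgeR 4.0.16 (R 4.3.3, robust quasi-likelihood, 10 libraries in 1 fit, 5 residual degrees of freedom), with Benjamini-Hochberg adjustment over 15740 genes and a threshold of 0.05. CPM used the TMM-scaled libraries, and RPKM divided it by the merged length of all exons of a gene in GENCODE. No effect shared by libraries of the same replicate number was seen (correlations of deviations -0.114 to 0.0548), and the libraries were fitted without pairing. Of the 62750 IDs, symbols came from the reference tables. The 9 genes and the pathway lists were chosen with earlier results of these data known. Named genes were the 9, up to 4 of each list and comparison with the smallest adjusted p, NRG1, ADAM17, RHBDF2, DUSP6, ERBB4, the neighbours on chromosome 4 and the 3 genes most like each gene that spanned at least 1 on the log2 scale. Some results under this rule are not reported here, and some other genes were named after their values were seen. Other scalings, filters, DESeq2 1.42.0, fits of 4 libraries, a replicate block, leaving out each library and, added after seeing the data, offsets for length and GC content were tried, and the scripts were tested on simulated data.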

Additional observations from a re-analysis of the deposited data

How the results depend on the processing

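Of 45 log2 fold changes of the 5 tested genes under 18 alternatives (810 values), 771 kept direction and side of the threshold, 24 lost a call, 7 gained one and 8 changed sign, all 8 among values that were not called. With library totals ERBB2 was -0.0030 for 1 µM CDD-2728 against IL1β. With length and GC offsets ERBB2 was -0.0016 for 10 µM CDD-2728 against IL1β and -0.040 between the doses. Leaving out 1 library gave ERBB2 values of -0.028 to 0.060 for 1 µM CDD-2728 against IL1β and -0.014 to 0.074 between the doses, ERBB3 values of -0.062 to 0.15 for 1 µM CDD-2728 against IL1β, and HBEGF values of -0.12 to 0.056 for 1 µM CDD-2728 against vehicle. With the offsets, calls of pathway genes in CDD-3013 changed sign, among them ADAM17 0.052, ADAM10 0.22 and HRAS -0.048 against IL1β, and ADAM10 0.098 against CDD-2728.

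The CDD-3013 against CDD-2728 comparison called 1818 genes in a fit of the 4 libraries and 610 with the offsets, against 2811. Leaving out 1 library gave 3509 to 5482 called genes for IL1β against vehicle (4 to 5 of the 5 tested genes), 224 to 1486 for 1 µM CDD-2728 (1 to 2), 3205 to 5359 for 10 µM CDD-2728 (1 to 2), 3680 to 6019 for CDD-3013 (2 to 3), 2668 to 4392 between the doses (2 to 3) and 656 to 3307 between the compounds (2). For 1 µM CDD-2728 the lowest count came without the first IL1β library and the highest, 1486, without the second library of that arm, and it was 315 without the second IL1β library and 318 without the first of the arm. Without the first and the second IL1β library 10 µM CDD-2728 gave 3205 and 3287, and without the first CDD-3013 gave 3680. Between the doses 2668 and 2722 came without the first and the second library of 10 µM, and between the compounds 656 and 951 without the second library of 1 µM CDD-2728 and of CDD-3013. Against vehicle the ranges were 3837 to 5703 with 1 µM CDD-2728, 3890 to 5833 with 10 µM CDD-2728 and 5767 to 8056 with CDD-3013. With library totals the share of higher calls was 61.7% with 10 µM CDD-2728, 39.2% with CDD-3013, 67% between the doses and 34.5% between the compounds, against 49.5%, 52.3%, 49.1% and 55.1% with TMM.

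No label says whether libraries of the same replicate number were handled together, and the first library had the higher total count in every group. No shared effect on the levels was seen. A replicate block changed no call of the 5 genes, with 4935 called genes for IL1β against vehicle and 633 for 1 µM CDD-2728. With 2 libraries a group, small differences rest on single libraries, and AREG, EREG, TGFA and BTC were left out by the filter on low counts, without which AREG with CDD-3013 against vehicle was the one call among these 4 genes.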
